A study of Mus musculus with 18 samples.

Results

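The mRNAs described here are those of 10 mouse selenoproteins, chosen by gene name from a table of read counts that lists 55487 genes. Gpx1, Selenow, Selenoh and Msrb1 form the set of 4 named as selenium-sensitive, and Gpx4, Txnrd1, Txnrd2, Selenop, Selenof and Sephs2 are the other 6 members. The split into sensitive and other members came with the gene names and not from these counts, and the selenium content of the media was not analysed here. All 10 members passed the filter on low counts.

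Selenoproteins carry selenocysteine, an amino acid inserted at a UGA codon that in other mRNAs ends translation. Reading UGA this way needs a stem-loop in the 3′ untranslated region (the SECIS element), a dedicated tRNA with its own maturation enzymes, and selenium. When selenium is short, a hierarchy is known in which some selenoprotein mRNAs decline, partly through nonsense-mediated decay of mRNAs whose UGA lies far enough upstream of an exon junction, whereas others persist. GPX1 and GPX4 are glutathione peroxidases, of which GPX4 reduces lipid hydroperoxides in membranes and thereby blocks ferroptosis, the iron-dependent cell death that the study addressed.

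The selenocysteine codon of each member is shown because it is the feature that the 10 mRNAs share and because its place relative to the exon junctions differs among them. The sequences are the coding strand of GENCODE M21 transcripts (GRCm38), 5′ to 3′, with the TGA of the selenocysteine codon in capitals, 12 bases before it and 15 after. The selenium-sensitive members come first.
Gpx1: gtcgcgtctctcTGAggcaccacgatccgg
Selenow: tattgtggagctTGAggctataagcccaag
Selenoh: cattgtacgagcTGAcgcgtgtacggccgc
Msrb1: caatcaagattcTGAatatttagcagctca
Gpx4: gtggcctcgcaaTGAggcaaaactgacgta
Txnrd1: cagtctggctgcTGAggttaagccccagtg
Txnrd2: gtgactggttgcTGAggctaagtcaccatc
Selenop: cttcaagccagcTGAtacttgtgtcttctg
Selenof: gaagtctgcggaTGAaaattggggaggttc
Sephs2: ggcatgaagggcTGAggctgcaaggtcccc
The codons of the sensitive members lie in coding exons at chr9:108339451-108339453 (Gpx1, plus strand, exon 1 of 2), chr7:15920464-15920466 (Selenow, minus strand, exon 2 of 6), chr2:84670381-84670383 (Selenoh, minus strand, exon 2 of 3) and chr17:24740158-24740160 (Msrb1, plus strand, exon 3 of 4). Those of Gpx4 and Txnrd1 lie on chromosome 10, plus strand, at chr10:80054737-80054739 (exon 3 of 7) and chr10:82896037-82896039 (exon 14 of 14). Txnrd2 has its codon at chr16:18477772-18477774 (plus strand, exon 17 of 17) and Selenof at chr3:144590645-144590647 (plus strand, exon 3 of 5). The mRNA of Sephs2 has 1 exon, with the codon at chr7:127273731-127273733 on the minus strand. Selenop is the only member with more than 1 selenocysteine codon; it has 10, and the first is shown, at chr15:3274848-3274850 (plus strand, exon 2 of 5).

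RNA-seq was done on mouse embryonic fibroblasts (MEFs) in 18 libraries, 3 in each of 6 groups. All were labelled wild type and grown in complete medium that differed in its fetal bovine serum: Scm contained S-FBS, a serum under which the cells were sensitive to ferroptosis, and Rcm contained R-FBS, a serum under which they were resistant. The groups Scm and Rcm were kept in 1 medium, R-Scm 12 h and R-Scm 24 h were moved from Rcm to Scm for 12 or 24 h, and S-Rcm 12 h and S-Rcm 24 h were moved from Scm to Rcm for the same times. The model is 1 MEF line from a cell bank in a basal medium, DMEM with high glucose, that was common to all groups. The study's methods describe its cell culture experiments as done in independent replicates, without naming these libraries, and the labels do not say that the 3 libraries of a group came from separate cultures, so that p-values measure the spread between these libraries.

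The libraries held 14534906 to 20313715 counted reads, with 1.81% to 3.41% of counts on mitochondrial genes. The 6 fibroblast markers Col1a1, Col1a2, Fn1, Pdgfrb, Thy1 and Vim summed to 7095 to 11460 counts per 1000000 reads (CPM). The 3 endothelial markers summed to 0.139 to 3.13 CPM, the 3 epithelial markers to 0.137 to 1.17 CPM, and the 3 blood markers to 2.02 to 5.09 CPM, of which Cd68 gave nearly all and Adgre1 was at 0 in all 18 libraries.

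Levels per length, in transcripts per 1000000 (TPM), spanned a wide range. Among the reads counted on the members themselves, Gpx1 was the most abundant by its mean over the 6 groups, at group means of 399 to 795 TPM, followed by Selenow at 226 to 559 TPM, and the group ranges of both overlapped. Txnrd1, a cytosolic thioredoxin reductase, had 185 to 254 TPM, Selenoh, a nuclear redox protein, 112 to 223 TPM, and Gpx4 157 to 186 TPM. Selenof, a protein of the endoplasmic reticulum, followed at 111 to 145 TPM. Sephs2, which makes the selenophosphate used for selenocysteine and is itself a selenoprotein, had 74.9 to 107 TPM, and Msrb1, a methionine sulfoxide reductase, 66.5 to 78.4 TPM. The mitochondrial thioredoxin reductase Txnrd2 was low, at 9.92 to 14.1 TPM, and Selenop, the secreted selenium carrier made mainly in liver, was nearly absent, at 0.717 to 2.11 TPM. The group range of Selenoh overlapped those of Txnrd1, Gpx4 and Selenof, and Txnrd1 overlapped Selenow and Gpx4. No order is given within these pairs. By group range Selenof lay below both Txnrd1 and Gpx4, although its range over single libraries overlapped both. Lengths were the union of all annotated exons of a gene, at 5819 bases for Selenof, 7086 for Txnrd1 and 1724 for Gpx4. The transcripts in which the codons were located have 1514, 3531 and 959 bases. Places in this order, such as that of Selenof, therefore depend on the length used. Selenoh lay narrowly below Selenow by group range, although their ranges over single libraries overlapped. The place of Gpx4 is uncertain, because a near-identical copy, Gpx4-ps2, had 1067 to 1189 TPM, above every member, and reads of the copy and of Gpx4 cannot be fully separated.

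The first comparison asked which members differed between cells kept in the 2 sera. Selenow was the clearest: its level was 52.5, 86.5 and 61.7 CPM in the 3 Scm libraries and 145, 166 and 178 CPM in the 3 Rcm libraries. All Rcm libraries were above all Scm libraries. Selenow, a small thioredoxin-fold protein abundant in muscle and brain, was thus 2.44-fold higher in Rcm (log2 fold change 1.29 ± 0.17 SE, adjusted p = 0.000435), and it was the only member called as a differentially expressed gene (DEG), that is, with an adjusted p under 0.05 in the edgeR quasi-likelihood test and an absolute log2 fold change over 0.58. That is 1 of 10 members, against 2.3% of the 15381 genes tested. Since RNA was taken from bulk cultures, fewer cells with a transcript and less of it per cell cannot be told apart.

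Gpx1 had 275, 146 and 265 CPM in Scm and 437, 420 and 502 CPM in Rcm. The groups did not overlap, but Scm replicate 2 lay well under the other Scm libraries, and the difference did not pass the test (log2 fold change 0.99, 95% interval 0.23 to 1.75, adjusted p = 0.183). Selenoh had 55.5, 61.7 and 76.2 CPM in Scm against 91.9, 86 and 122 CPM in Rcm, again without overlap and short of the threshold (log2 fold change 0.64, 95% interval 0.20 to 1.07, adjusted p = 0.128). DESeq2 fitted to the Rcm and Scm libraries only called both Gpx1 (0.98, adjusted p = 0.000258) and Selenoh (0.63, adjusted p = 0.0118). That fit called 3.82% of all genes. The fourth sensitive member, Msrb1, differed little, with 32.8 to 37.8 CPM in Scm and 35.5 to 41.6 CPM in Rcm (log2 fold change 0.10, 95% interval -0.11 to 0.30, adjusted p = 0.633). The median log2 fold change of the 4 sensitive members was 0.81, all 4 being positive, whereas it was 0.02 for the other 6 members, with 3 positive and 3 negative, and 0.01 over all genes tested.

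Among the other members, Sephs2 had the lowest adjusted p and the opposite direction. It had 91.4, 98.1 and 91.7 CPM in Scm and 59.9, 62.5 and 71.2 CPM in Rcm, without overlap. Its log2 fold change of -0.54 ± 0.10 passed the adjusted p (0.00907) but not the fold threshold, and without Rcm replicate 3 it passed both (-0.63, adjusted p = 0.00657), when 3.66% of all genes were called. Gpx4 had 108, 124 and 119 CPM in Scm and 128, 129 and 125 CPM in Rcm, which did not overlap but lay close together (log2 fold change 0.12, 95% interval -0.05 to 0.29, adjusted p = 0.474). Txnrd2 was at 22.8, 27.5 and 24.5 CPM in Scm and 16.6, 19.4 and 22.2 CPM in Rcm, also without overlap (log2 fold change -0.36, adjusted p = 0.264). Txnrd1 (log2 fold change -0.09, adjusted p = 0.754) and Selenof (log2 fold change 0.21, adjusted p = 0.387) overlapped between the groups.

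Selenop gave the largest log2 fold change of the 10 in this comparison, 1.52, on very few reads: 9 to 15 counts per library in Scm and 37 to 44 in Rcm. Its groups did not overlap, but its 95% interval ran from 0.34 to 2.70 and it did not pass the test (adjusted p = 0.183). Fits to the Rcm and Scm libraries only did call Selenop, with edgeR (1.51, adjusted p = 0.0328) and with DESeq2 (1.52, adjusted p = 0.0167). Those fits called 3.18% and 3.82% of all genes. In all, 7 of 10 members did not overlap between Scm and Rcm, namely Gpx1, Selenow, Selenoh, Gpx4, Txnrd2, Selenop and Sephs2, against 23.9% of all genes tested.

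**Figure D1:**
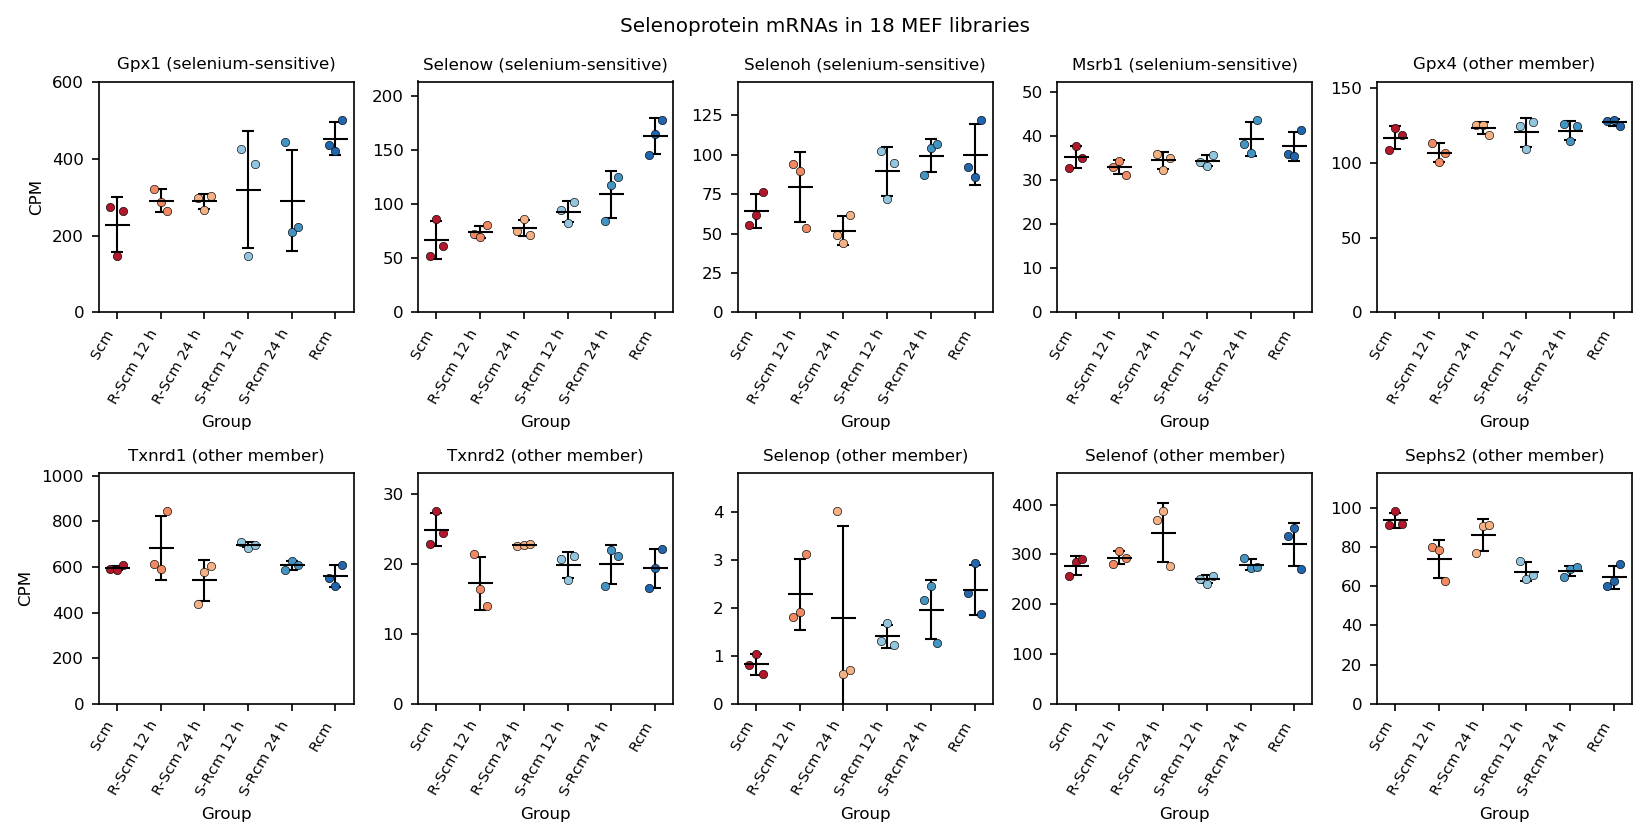
Level of the 10 selenoprotein mRNAs in each library, in CPM (vertical axis, from 0), with the 6 groups along the horizontal axis. Points are libraries, the wide bar is the group mean and the error bar is 1 SD (n = 3). Selenow lies at 145 to 178 CPM in Rcm and at 52.5 to 86.5 CPM in Scm, while Msrb1 and Gpx4 stay within a narrow band.

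Moving cells from Rcm to Scm asked whether the levels changed after the resistant serum was taken away. Selenow fell within 12 h, to 72.5, 69.7 and 80.5 CPM, and was at 75.8, 86.7 and 72 CPM at 24 h. Every library of both groups was below every Rcm library. The log2 fold changes from Rcm were -1.14 ± 0.17 at 12 h (adjusted p = 0.00102) and -1.06 ± 0.17 at 24 h (adjusted p = 0.00803), which left 0.455 and 0.479 of the Rcm level. Selenow was the only member called as a DEG at either time, against 2.74% of all genes at 12 h and 0.377% at 24 h. The call at 24 h was lost without R-Scm 24 h replicate 3 (-0.99, adjusted p = 0.0645) and when only the Rcm and R-Scm 24 h libraries entered the edgeR fit (-1.06, adjusted p = 0.068).

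Selenoh stood apart from Rcm at 24 h but not at 12 h. At 12 h it had 94.4, 89.8 and 53.8 CPM, overlapping Rcm (log2 fold change -0.33, adjusted p = 0.436). At 24 h it had 49.1, 44.2 and 62 CPM, all below Rcm, and its log2 fold change of -0.95 ± 0.21 lay at the edge of the threshold (adjusted p = 0.0504). Without R-Scm 24 h replicate 1 it was called (-0.91, adjusted p = 0.0454), when 3.19% of all genes were called, and so it was with DESeq2 on the 18 libraries (-0.93, adjusted p = 0.00287). The change of Selenoh between 12 and 24 h itself did not pass the test (log2 fold change -0.62, adjusted p = 0.19).

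Gpx1 was at 322, 287 and 263 CPM at 12 h and at 297, 268 and 304 CPM at 24 h. All 6 values were below the 3 Rcm values, with log2 fold changes of -0.64 at both times that did not pass the test (adjusted p = 0.379 and 0.58). With DESeq2 on the 2 groups alone, Gpx1 was called at 12 h (-0.63, adjusted p = 0.000281) and at 24 h (-0.63, adjusted p = 0.0054). Msrb1 had log2 fold changes of -0.20 and -0.13 (adjusted p = 0.31 and 0.718). The median of the 4 sensitive members was -0.49 at 12 h and -0.80 at 24 h, all 4 being negative at both times, against -0.09 and 0.03 for the other 6 members and -0.01 and 0.00 over all genes.

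None of the other 6 members was a DEG after the exchange to Scm in the edgeR test or with DESeq2, and 2 of them at 12 h and 1 at 24 h had an unadjusted p under 0.05, against 17.6% and 10.3% of all genes. Gpx4 was at 113, 100 and 107 CPM at 12 h, below all Rcm libraries (log2 fold change -0.25, 95% interval -0.42 to -0.08, adjusted p = 0.0909), and at 126, 125 and 119 CPM at 24 h (log2 fold change -0.04, adjusted p = 0.913). Sephs2 had the opposite sign, at 80.2, 78.3 and 62.6 CPM at 12 h (log2 fold change 0.19, adjusted p = 0.371) and 76.7, 90.8 and 91.2 CPM at 24 h (log2 fold change 0.42, adjusted p = 0.0902). By 24 h all Sephs2 values were above those of Rcm.

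Selenop in R-Scm 24 h rested on 1 library: the counts were 68, 10 and 14 in replicates 1, 2 and 3. With all libraries its log2 fold change from Rcm was -0.41 (adjusted p = 0.854), and without replicate 1 it was -1.79 (adjusted p = 0.0118). Txnrd1 had 844 CPM in R-Scm 12 h replicate 3 against 614 and 590 CPM in the other replicates, and its log2 fold change there was 0.29 (adjusted p = 0.245). Libraries did not overlap with Rcm for 4 of 10 members at 12 h and 5 of 10 at 24 h, against 23.4% and 11.2% of all genes tested.

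The reverse exchange, from Scm to Rcm, asked whether the levels rose after the move to the resistant serum. Selenow reached 94.9, 82.8 and 102 CPM at 12 h and 84.4, 117 and 125 CPM at 24 h, between the levels of Scm and Rcm. The log2 fold changes from Scm were 0.48 ± 0.17 at 12 h (adjusted p = 0.192) and 0.71 ± 0.17 at 24 h (adjusted p = 0.0867). Both groups overlapped Scm, of which replicate 2 was the highest library, and without that library Selenow was called at 24 h (0.93, adjusted p = 0.0401). DESeq2 on the 18 libraries also called it at 24 h (0.70, adjusted p = 0.00949).

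Selenoh had 102, 71.9 and 94.5 CPM at 12 h and 87.5, 104 and 107 CPM at 24 h, when all libraries were above Scm (log2 fold change 0.63, 95% interval 0.19 to 1.06, adjusted p = 0.313). DESeq2 on the 2 groups called Selenoh at 24 h (0.62, adjusted p = 0.00153), when 1.65% of all genes were called. Gpx1 varied most between replicates here: 426, 146 and 388 CPM at 12 h and 444, 209 and 221 CPM at 24 h. Its log2 fold changes were 0.49 (adjusted p = 0.592) and 0.35 (adjusted p = 0.905), and without S-Rcm 24 h replicate 1 the latter was -0.09. The low libraries of Scm and S-Rcm 12 h both bear the number 2; whether they share a culture or a day is not stated. The median log2 fold change of the sensitive members was 0.48 at 12 h and 0.49 at 24 h, with 3 and 4 of 4 positive, against -0.05 and 0.02 for the other members and 0.02 and 0.01 over all genes.

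Sephs2 was the only member past the adjusted p in this direction. It fell to 73, 63.5 and 65.8 CPM at 12 h, below every Scm library; its log2 fold change, -0.47 ± 0.10 (adjusted p = 0.0344), was under the fold threshold, and it stood at 64.9, 68.7 and 69.7 CPM at 24 h (log2 fold change -0.47, adjusted p = 0.0684). No member was a DEG by edgeR at 12 or 24 h, where DEGs made up 0.858% and 0.338% of all genes tested. At each time 4 of 10 had an unadjusted p under 0.05, against 14.3% and 8.11% of all genes. DESeq2 on the 18 libraries called 0 members at 12 h and 1, Selenow, at 24 h. Libraries did not overlap with Scm for 4 of 10 members at each time, against 26.4% and 19.5% of all genes. Gpx4 had log2 fold changes of 0.04 (95% interval -0.13 to 0.21) and 0.06 (95% interval -0.11 to 0.23).

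**Figure D2:**
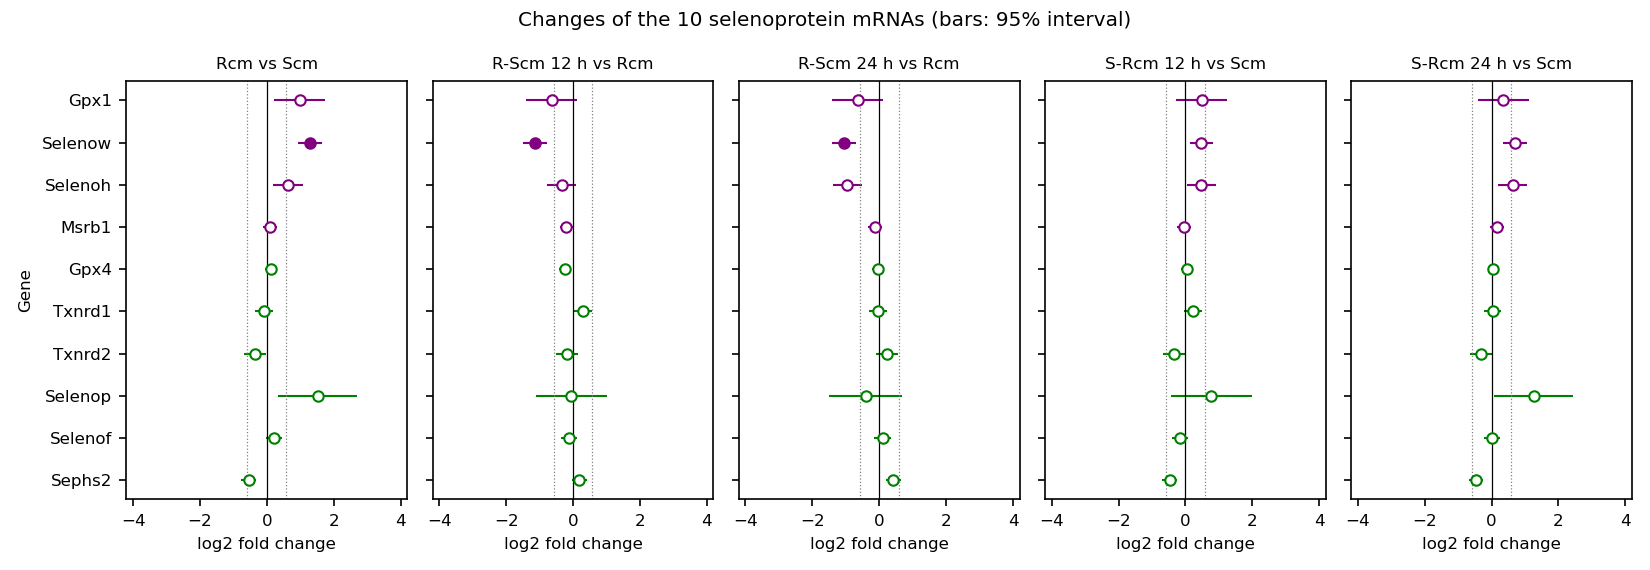
Log2 fold change (horizontal axis) of the 10 members (vertical axis) in 5 comparisons, with 95% intervals from the edgeR fit; filled points are DEGs, purple marks the sensitive members, green the others, and dotted lines the fold threshold of 0.58. Selenow is the only filled point, in the steady comparison and in both exchanges to Scm, and Selenop has the widest intervals.

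Levels were also compared with those of the medium that the cells were moved into. Selenow after the exchange to Scm was near its level in Scm, with log2 fold changes of 0.15 at 12 h (95% interval -0.20 to 0.51, adjusted p = 0.607) and 0.23 at 24 h (95% interval -0.13 to 0.58, adjusted p = 0.696). After the exchange to Rcm it was still below Rcm at 12 h (-0.81, adjusted p = 0.0294), where it was a DEG, and at 24 h (-0.58, adjusted p = 0.278), where it was not, although no library overlapped with Rcm at either time. DEGs among all genes were 4.4% in R-Scm 12 h against Scm and 0.592% in R-Scm 24 h against Scm, and 0.871% in S-Rcm 12 h against Rcm and 0.221% in S-Rcm 24 h against Rcm. Txnrd2 in R-Scm 12 h, at 21.4, 16.4 and 14 CPM, was below all 3 Scm libraries with an adjusted p of 0.0471, under the fold threshold (log2 fold change -0.53). These comparisons and the preceding ones share the Scm and Rcm libraries and are not independent.

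The effects of the 2 exchanges were also set against each other in an edgeR interaction, the change from Scm to Rcm minus the change from Rcm to Scm, in which a gene that follows the serum in both directions has the sum of both shifts. This interaction contains the difference between Rcm and Scm already given and is not independent of it. At 12 h the difference was 1.62 ± 0.24 for Selenow (adjusted p = 0.00128) and -0.66 ± 0.15 for Sephs2 (adjusted p = 0.0243), so that 2 of 10 members were called against 2.03% of all genes. The Sephs2 difference at 12 h was not stable, since its adjusted p exceeded the threshold in 9 of the 12 fits that left out 1 library (0.0549 to 0.0718). At 24 h the difference was 1.77 ± 0.24 for Selenow (adjusted p = 0.000991), 1.58 ± 0.29 for Selenoh (adjusted p = 0.0107) and -0.88 ± 0.15 for Sephs2 (adjusted p = 0.00474), which is 3 of 10 members against 1.37% of all genes. Gpx4 had differences of 0.30 (adjusted p = 0.221) and 0.10 (adjusted p = 0.79). Without R-Scm 24 h replicate 1, Selenop was also called at 24 h (3.05, adjusted p = 0.00142), when 4.85% of all genes were called.

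Over all 6 groups, a test for any difference gave an adjusted p of 0.000707 for Selenow, 0.0107 for Sephs2 and 0.0334 for Selenoh, and 0.112 to 0.397 for the other 7 members; 7.09% of all genes passed. By group mean, Selenow was lowest in Scm (66.9 ± 17.5 CPM, SD, n = 3), then R-Scm 12 h (74.2 ± 5.63), R-Scm 24 h (78.2 ± 7.65), S-Rcm 12 h (93.3 ± 9.74), S-Rcm 24 h (109 ± 21.8) and Rcm (163 ± 16.5 CPM). Neighbours in this order overlapped in their libraries, except S-Rcm 24 h and Rcm, which did not. Sephs2 was highest in Scm (93.7 ± 3.81 CPM) and R-Scm 24 h (86.2 ± 8.27 CPM) and lowest in S-Rcm 24 h (67.8 ± 2.53), S-Rcm 12 h (67.4 ± 4.94) and Rcm (64.6 ± 5.91 CPM), the last 3 overlapping; R-Scm 12 h, at 73.7 ± 9.63 CPM, overlapped these and R-Scm 24 h.

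The mean log2 CPM of the 4 sensitive members summarised each library by 1 value. It was 6.17 to 6.35 in Scm, 6.27 to 6.53 in R-Scm 12 h, 6.25 to 6.38 in R-Scm 24 h, 6.20 to 6.77 in S-Rcm 12 h, 6.62 to 6.74 in S-Rcm 24 h and 6.91 to 7.19 in Rcm. The Rcm libraries were above all others, and the S-Rcm 24 h libraries above Scm and above both R-Scm groups. For the other 6 members the same mean ran from 5.81 to 6.18 over all groups, with overlap between every group and at least 1 other.

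The members differed in how much they varied within groups. The pooled SD between libraries of a group was 0.48 on the log2 scale for Gpx1 and 0.65 for Selenop, above 96.2% and 98.4% of the genes expressed at 5 CPM or more. Selenop itself lay below that level, at group means of 0.82 to 2.37 CPM, so its rank is against genes with more reads. The pooled SD was 0.23 for Selenow and 0.28 for Selenoh. The steadiest were Gpx4 (0.08, above 6.06% of genes), Msrb1 (0.10, above 12.8%) and Sephs2 (0.12, above 25.3%). Differences between groups made up 84.6% of the variance of Selenow, 79.3% of that of Sephs2 and 68.9% of that of Selenoh, but 37.9% of that of Gpx1. The remaining members ranged from 46% (Selenop) to 59.3% (Gpx4). Some share arises from the spread between libraries alone, and the share over all genes was not computed.

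Reads of Gpx4 cannot be fully separated from those of a copy. Gpx4-ps2, a transcribed processed pseudogene at chr10:45875291-45876086 (plus strand), matched the Gpx4 mRNA at 99.738% of bases over 762 of its 959 bases, and it held 112891 counts over the 18 libraries against 36677 for Gpx4. Of the reads on both, Gpx4 took 23% to 27.4% per library. How reads that fit both were assigned is not stated in the sources used here, and the level of Gpx4 is uncertain for that reason. Gpx4-ps2 had log2 fold changes of -0.03 in Rcm against Scm, -0.14 and 0.07 after exchange to Scm for 12 and 24 h, and -0.08 and -0.01 after exchange to Rcm (lowest adjusted p = 0.497). With both summed, Gpx4 turned direction in R-Scm 24 h against Rcm (0.04) and in S-Rcm 12 h against Scm (-0.05), where it did not pass the test either way.

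**Figure D3:**
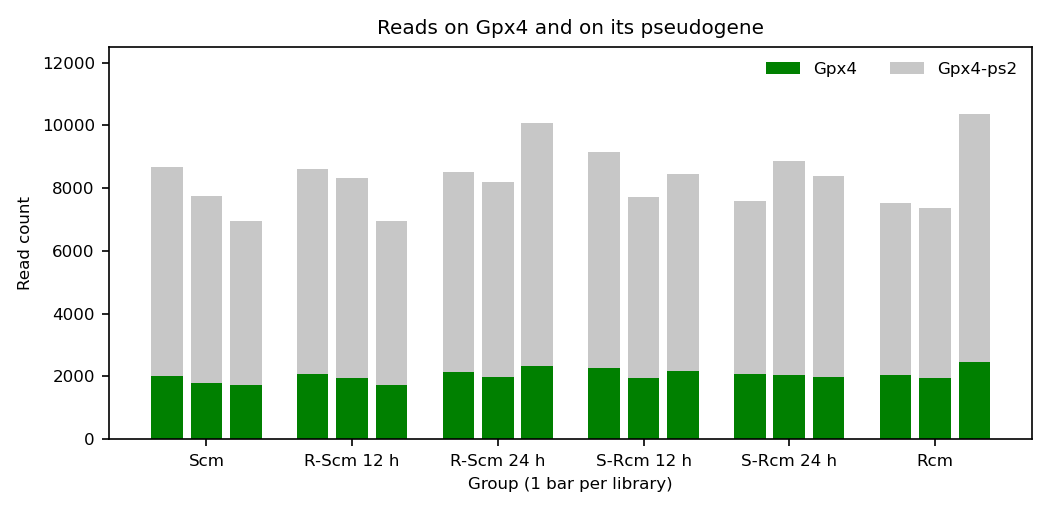
Read counts (vertical axis, from 0) on Gpx4 (green) and on Gpx4-ps2 (grey, stacked on top) in each of the 18 libraries, grouped along the horizontal axis. Gpx4 holds 1726 to 2453 reads per library and Gpx4-ps2 5204 to 7907, with Gpx4 at 23% to 27.4% of both over the 18 libraries.

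Overlapping genes were checked for the other members as well. Sephs2 shares 792 bases with Gm44729 (160 counts against 23296) and Selenop 439 bases with Ccdc152 (2 counts against 545), both on the opposite strand.

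The place of the selenocysteine codon was set beside the changes, since decay by the nonsense-mediated route depends on an exon junction downstream. From the codon to the last exon junction there were 105 bases in Gpx1, 243 in Selenow and 136 in Selenoh, but 34 in Msrb1. Among the others there were 342 in Gpx4, 357 in Selenop from the first codon and 78 in Selenof, whereas Txnrd1, Txnrd2 and Sephs2 have no junction after it. Of the 24 mouse selenoprotein genes, 19 were tested, 9 of them with the codon more than 50 bases before the last junction and 10 without.

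In Rcm against Scm, all 9 genes with a distant junction had a positive log2 fold change (0.12 to 1.52, median 0.59), and of the 10 without, 4 were positive and 6 negative (-0.54 to 1.96, median -0.05). In R-Scm 12 h and R-Scm 24 h against Rcm, 8 of the 9 were negative (medians -0.25 and -0.31), against 5 and 6 of the 10 (medians 0.05 and -0.05). In S-Rcm 12 h and S-Rcm 24 h against Scm, 8 and 9 of the 9 were positive (medians 0.47 and 0.35), against 5 and 3 of the 10 (medians 0.02 and -0.07). The medians over all genes tested lay between -0.01 and 0.02 in these comparisons. Of the 15381 genes, 7980 were positive in Rcm against Scm. After exchange to Scm for 12 and 24 h 7875 and 7740 were negative, and after exchange to Rcm 8231 and 7875 were positive. These counts are a description: the genes are few, the comparisons share libraries, Gpx4 at 342 bases differed little, and only Selenow among the 9 was a DEG in any of the 5 comparisons. The value of 1.52 was that of Selenop, which had 9 to 15 counts per library in Scm. Selenof counted as positive in S-Rcm 24 h at 0.0081 and turned sign in 3 of 15 alternatives.

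**Figure D4:**
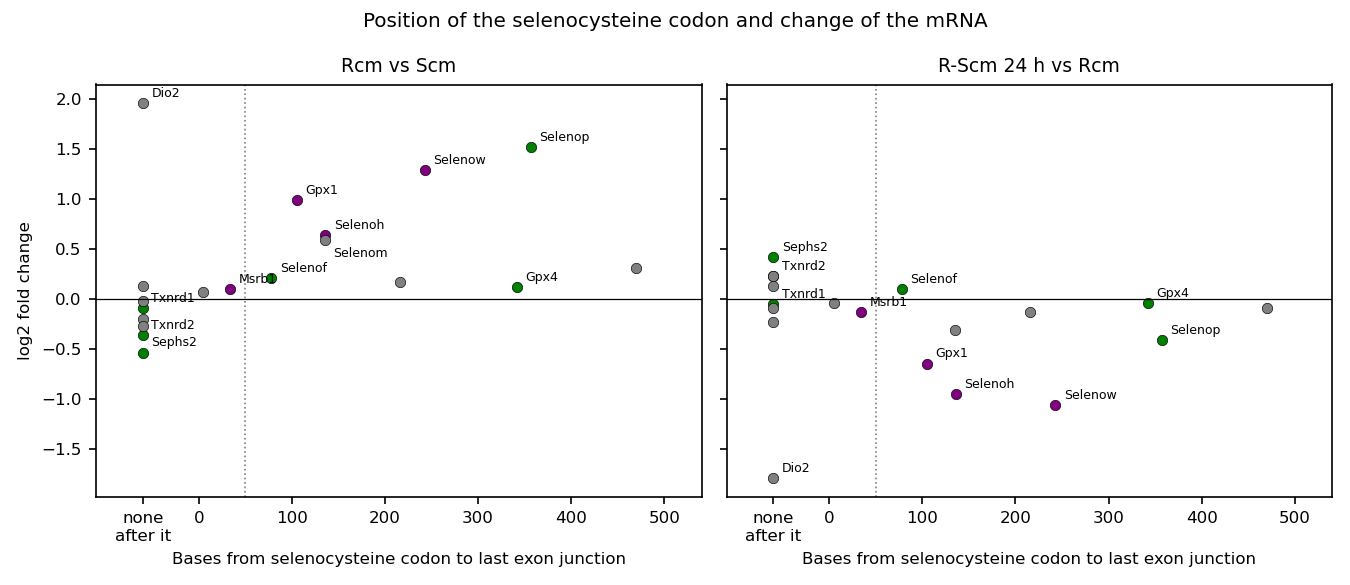
Log2 fold change (vertical axis) of the 19 tested selenoprotein genes against the distance in bases from the selenocysteine codon to the last exon junction (horizontal axis; genes with no junction after the codon stand at the left), for Rcm against Scm and R-Scm 24 h against Rcm. Purple marks the sensitive members, green the other members and grey other selenoproteins, and the dotted line is at 50 bases. Selenow, Gpx1 and Selenoh lie right of the line at 0.64 to 1.29 in the left panel, while Gpx4, also right of it, lies at 0.12.

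The other selenoproteins of the mouse were examined next. Of 14, 9 were tested, and Gpx2, Gpx3, Dio1, Dio3 and Selenov were not, having at most 9 counts in any library. None of the 9 was a DEG by edgeR in the 5 comparisons, with 5, 5, 2, 1 and 2 at an unadjusted p under 0.05, taken in the order Rcm against Scm, exchange to Scm for 12 and 24 h, exchange to Rcm for 12 and 24 h. The shares of all genes at an unadjusted p under 0.05 were 16.2%, 17.6%, 10.3%, 14.3% and 8.11% in the same order. In Rcm against Scm 6 of the 9 had a positive and 3 a negative log2 fold change, with a median of 0.13, against 0.01 over all genes. Selenom, a thioredoxin-like protein of the endoplasmic reticulum, had log2 fold changes of 0.59, -0.51, -0.31, 0.60 and 0.72 in that order (adjusted p = 0.201 to 0.696). Dio2, the deiodinase that activates thyroid hormone, had 2.99 CPM in Rcm and 0.747 CPM in Scm (log2 fold change 1.96, adjusted p = 0.0839); its mean in R-Scm 24 h was 0.869 CPM (log2 fold change from Rcm -1.79, adjusted p = 0.205). Selenot and Selenon, both of the endoplasmic reticulum, had log2 fold changes of 0.31 and 0.17 in Rcm against Scm (adjusted p = 0.291 and 0.284). Selenoo, a mitochondrial pseudokinase, and Selenoi, an ethanolamine phosphotransferase, had the opposite sign, with -0.27 and -0.20 (adjusted p = 0.183 and 0.309).

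Of 18 genes for selenocysteine synthesis and insertion, selenium uptake and decay of UGA-containing mRNAs, all were tested, and 1 was a DEG in 1 of the 5 comparisons. That was Sars, the seryl-tRNA synthetase that charges the selenocysteine tRNA as well as serine tRNAs, with group means of 336 CPM for Scm and of 222 CPM for S-Rcm 12 h (log2 fold change -0.60 ± 0.12, adjusted p = 0.0168). Its mean was also lower 12 h after the opposite exchange, at 214 CPM in R-Scm 12 h against 258 CPM in Rcm, with overlapping libraries. At 24 h it was 269 CPM in S-Rcm 24 h and 320 CPM in R-Scm 24 h. Sars passed the test for any difference among the 6 groups (adjusted p = 0.00492). Lrp8, a receptor that takes up selenoprotein P, had a mean of 94.6 CPM in Rcm and fell by 12 h in Scm to 63.7 CPM (log2 fold change -0.57, adjusted p = 0.00304), with 68.6 CPM by 24 h (log2 fold change -0.46, adjusted p = 0.0491), both short of the fold threshold. Lrp2, the other uptake receptor of the list, had the opposite sign on few reads, with 1.72 CPM in Rcm, 3.21 CPM in R-Scm 12 h and 3.17 CPM in R-Scm 24 h (log2 fold changes 0.88 and 0.87, adjusted p = 0.114 and 0.271). Lrp2 passed the test for any difference among the 6 groups (adjusted p = 0.00472), as did Lrp8 (adjusted p = 0.0076). The median of the 18 genes in Rcm against Scm was 0.03. Secisbp2, which binds the SECIS element, differed by a log2 fold change of -0.04 between Rcm and Scm (adjusted p = 0.874), Eefsec, the elongation factor for selenocysteine, -0.11 (adjusted p = 0.69), and Trit1, which adds the isopentenyl group to the selenocysteine tRNA, 0.05 (adjusted p = 0.875).

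Of 10 relatives that carry no selenocysteine, 8 were tested, and none was a DEG by edgeR in the 5 comparisons, with 1, 0, 2, 2 and 1 at an unadjusted p under 0.05, where 8.11% to 17.6% of all genes were. Their median in Rcm against Scm was 0.13. Gpx8, a glutathione peroxidase relative with cysteine, differed by a log2 fold change of 0.13 between Rcm and Scm (adjusted p = 0.502) and Msrb3, a methionine sulfoxide reductase with cysteine, 0.14 (adjusted p = 0.502). Of 8 targets of NRF2, the transcription factor that also drives Txnrd1, 1 was a DEG: Nqo1, a quinone reductase, rose after 12 h in Rcm to 337 CPM, from 141 CPM before the exchange (log2 fold change 1.25 ± 0.11, adjusted p = 1.91e-05) and was at 163 CPM in S-Rcm 24 h. Nqo1 was also higher 12 h after the opposite exchange, at 228 CPM in R-Scm 12 h against 163 CPM in Rcm, which passed the adjusted p but not the fold threshold (log2 fold change 0.49, adjusted p = 0.0165). The median of the 8 targets was 0.29 in S-Rcm 12 h against Scm and 0.04 in Rcm against Scm. Txnrd1 at S-Rcm 12 h was at 708, 685 and 698 CPM, above the 592, 589 and 607 CPM of Scm, without passing the test (log2 fold change 0.23, adjusted p = 0.449).

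**Figure D5:**
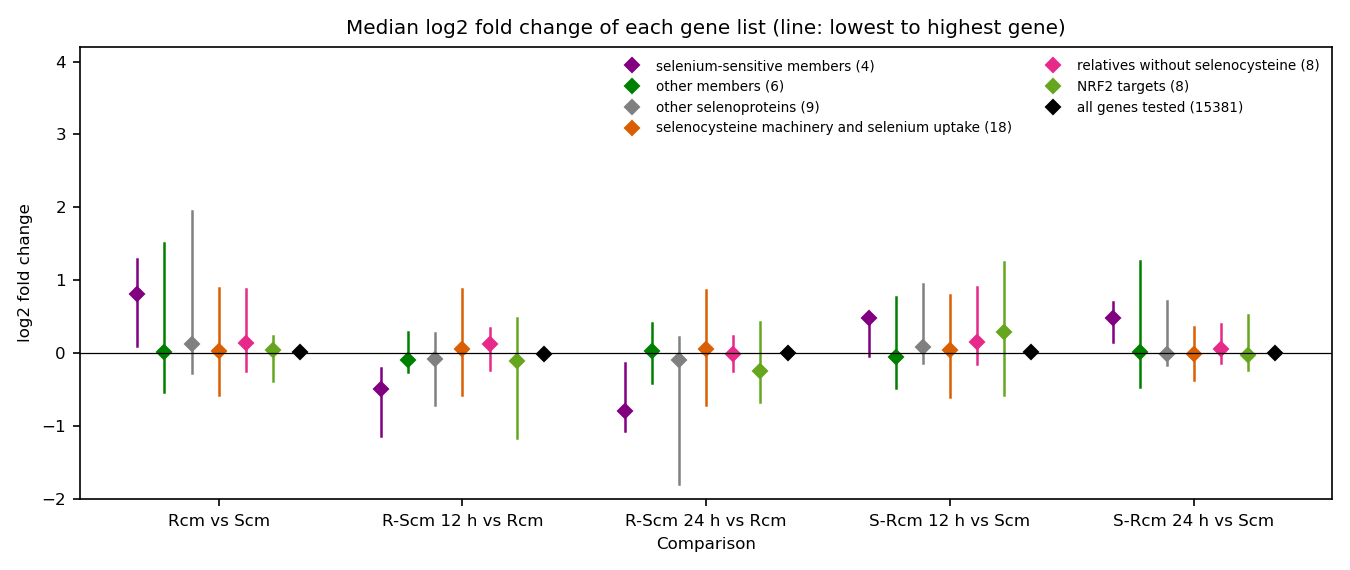
Median log2 fold change (diamonds, vertical axis) of each gene list in the 5 comparisons along the horizontal axis, with a line from the lowest to the highest gene of the list and the number of tested genes in the legend; no line is drawn for all 15381 genes. The 4 sensitive members have medians of 0.81, -0.49, -0.80, 0.48 and 0.49, while the other 6 members stay between -0.09 and 0.03.

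The genes most like 3 of the members over the 18 libraries were found by Pearson's r of log2 CPM among 11019 genes. They were Fmnl1 (r = 0.88) and Aldh9a1 (r = 0.86) for Selenow, Gm20503 (r = 0.75) and Kif3c (r = 0.71) for Gpx1, and Gsn (r = 0.77) and Gm10123 (r = 0.75) for Gpx4. The points share the 6 groups, so genes that differ between the sera in the same direction have a high r. Between members, Selenow had an r of 0.58 with Selenoh, 0.57 with Msrb1 and 0.38 with Gpx1. With members outside the sensitive set its r was 0.57 for Gpx4 and 0.40 for Selenop, so that high values were not limited to that set, and -0.60 for Sephs2. Over all pairs of sensitive members r ran from 0.13 to 0.58, and the highest r between any pair of members was 0.74, for Txnrd2 and Sephs2.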

How the data were processed

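The 10 members, the gene lists and the tests were chosen with earlier results of these data known. HISAT2 was the aligner and GRCm38 the build that the authors used, and they deposited raw counts per gene for 18 libraries (3 in each of 6 groups); the counting tool, use of strand and treatment of reads with several matches are not given in the sources used here. The totals of 14534906 to 20313715 counts per library set the precision, so that low genes such as Selenop are the least certain.

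From the counts, genes were filtered by group (filterByExpr, 15381 of 55487 kept), scaled by TMM and fitted over all 18 libraries with the edgeR 4.0.16 quasi-likelihood test in R 4.3.3, with Benjamini-Hochberg adjustment over all genes tested. DEGs had an adjusted p under 0.05 and an absolute log2 fold change over 0.58. The fit was tested on simulated data. CPM are TMM-scaled and per 1000000 counts on the genes tested. TPM used the length of the union of all exons of a gene in GENCODE M21, matched for 55227 gene IDs. Codons were located in GENCODE M21 transcripts and copies with blastn 2.17.0. Replicates differed by more than sampling noise (chi-square per degree of freedom 9.33 to 41.1), so each library counted once. Alternatives were RLE and upper-quartile scaling, other filters, DESeq2 1.42.0, fits on 2 groups, a replicate block, Gpx4 summed with Gpx4-ps2, and each library left out. Genes named were the members, Gpx4-ps2, the DEGs of each pathway list, and the 2 genes most correlated with Selenow, Gpx1 and Gpx4; Selenom, Dio2, Selenot, Selenon, Selenoo, Selenoi, Lrp8, Lrp2, Secisbp2, Eefsec, Trit1, Gpx8 and Msrb3 were named in addition after their values were seen.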

Additional observations from a re-analysis of the deposited data

Results flagged for a closer look

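For 3 members the effect of moving cells from Scm to Rcm differed from that of moving them from Rcm to Scm by an edgeR interaction test. The difference of the log2 fold changes was 1.62 at 12 h (adjusted p = 0.00128) and 1.77 at 24 h (adjusted p = 0.000991) for Selenow, -0.66 at 12 h (adjusted p = 0.0243) and -0.88 at 24 h (adjusted p = 0.00474) for Sephs2, and 1.58 at 24 h (adjusted p = 0.0107) for Selenoh. The exchanges run in opposite directions, so a gene that follows the serum each way gives such a difference. The interaction also contains the difference between the steady groups Rcm and Scm. Selenow, at 24 h, had shifts of 0.71 and -1.06, Selenoh of 0.63 and -0.95, and Sephs2 of -0.47 and 0.42.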

How the results depend on the processing

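Over the member fold changes in the 5 comparisons and the 2 interactions, 1072 of the values under an alternative kept their direction and their side of the threshold, 17 gained a call, 11 lost one and 23 changed sign. The changes of Selenow between the 2 steady media and at 12 h after exchange to Scm kept their call under every alternative. Whether the replicate numbers pair the samples is not settled. Correlations of deviations were -0.20 to 0.35, over 0.1 in 3 of 15 pairs of libraries with the same number, which came from 5 pairs of groups. Those between R-Scm 24 h and Rcm were 0.085, 0.16 and 0.35. With a replicate block 1, 1, 1, 0 and 0 members were called in the 5 comparisons, as without it. The numbers are those of the titles; the count columns of S-Rcm 24 h, R-Scm 12 h and R-Scm 24 h number the same libraries 1, 3 and 4, and pairing by those was not tested.

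Counts of members called are given with the share of all genes called the same way. In Rcm against Scm they were 2 by adjusted p alone (2.87%), 2 with edgeR on the 2 groups (3.18%), 4 with DESeq2 on the 2 groups (3.82%) and 1 to 2 without 1 library (1.13% to 3.66%). In R-Scm 12 h they were 2 on the 2 groups with edgeR (1.62%) or DESeq2 (3.71%). In R-Scm 24 h they were 0 with edgeR on the 2 groups (0.0276%), 2 with DESeq2 on 18 libraries (1.15%), 3 with DESeq2 on the 2 groups (0.579%) and 0 to 3 without 1 library (0.0891% to 3.19%, the highest without R-Scm 24 h replicate 1). In S-Rcm 12 h 1 was called by adjusted p alone (1.25%), and in S-Rcm 24 h 1 with DESeq2 on 18 libraries (0.957%), 2 on the 2 groups (1.65%) and 0 to 1 without 1 library (0.0382% to 0.178%). Requiring 10 counts in every library, which removed Selenop, gave medians of the other members of -0.093 in Rcm against Scm and -0.16 in S-Rcm 12 h.

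Without 1 library, the median of the sensitive members was 0.67 to 0.94 in Rcm against Scm, -0.87 to -0.66 in R-Scm 24 h and 0.41 to 0.57 in S-Rcm 24 h, and that of the other members -0.13 to 0.035 in R-Scm 12 h. Signs of changes that were not called turned for Selenop (-0.34 to 0.12 in R-Scm 12 h, -1.79 to 0.0087 in R-Scm 24 h), Gpx4 (-0.058 to 0.0030 in R-Scm 24 h, -0.0072 to 0.10 in S-Rcm 12 h), Txnrd1 (-0.12 to 0.079 in R-Scm 24 h), Msrb1 (-0.082 to 0.020 in S-Rcm 12 h), Gpx1 (-0.085 to 0.54 in S-Rcm 24 h) and Selenof (-0.048 to 0.044 in S-Rcm 24 h, and -0.000128 with edgeR on the 2 groups). In the 12 h interaction they turned for Txnrd1 (-0.16 to 0.12), Txnrd2 (-0.29 to 0.025) and Selenof (-0.10 to 0.070), and in the 24 h interaction for Txnrd1 (-0.051 to 0.14). With Gpx4-ps2 added, Gpx4 turned to 0.044 in R-Scm 24 h, -0.0498 in S-Rcm 12 h and -0.039 in the 24 h interaction. The cause was not tested.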
